A study of Bos taurus with 2 samples.

Results

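Notch genes were followed through cultured bovine satellite cells, the muscle stem cells that lie between a muscle fibre and its basement membrane. The 10 genes were the receptors NOTCH1, NOTCH2 and NOTCH3, the ligands JAG1, JAG2 and DLL1, the target genes HES1, HEY1 and HEYL, and the pathway inhibitor NUMB. They were chosen by name, 10 rows out of 21867 in the feature list, and all 10 had counts. The cells came from the longissimus muscle of 1 male Holstein calf, 2 weeks of age, and had grown for 1 week in DMEM with 10% FBS, with no treatment. The same cells were made into 2 single-cell libraries, replicates 1 and 2, of 9939 and 9157 cells, so differences between the libraries show the spread of library preparation and counting and nothing of animals or cultures. The unit of measurement was the UMI, a molecular tag that counts each captured mRNA molecule 1 time, from its 3′ end. The 15 cell clusters are those of the authors.

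Notch receptors are activated by ligands on a neighbouring cell. A protease complex then frees the intracellular part of the receptor, which enters the nucleus, binds the DNA-binding protein RBPJ and switches on HES and HEY genes, whose products are transcriptional repressors. In muscle, Notch signalling is known to keep satellite cells undifferentiated and to hold back MYOD1 and MYOG, and activated myoblasts are a known source of the ligand DLL1. NUMB binds the receptor and promotes its removal.

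Levels are UMIs of a gene per 10000 UMIs of all genes, summed over the cells of a cluster in each library, and are given as mean ± SD of the 2 libraries. A level counts captured 3′ ends and does not scale with transcript length. Total depth was 145631299 and 137818568 UMIs, with medians of 14626 and 15206 UMIs per cell. Clusters 7, 13, 14 and 15 were shallow, at medians of 1389, 1631, 2513.5 and 647 UMIs per cell, and cluster 10 stood at 5398.5, against 12929 to 23011 in the other 10 clusters. The libraries had 27 barcodes in common. PAX7, the defining transcription factor of satellite cells, had 176 UMIs in 0.922% of the cells, whereas MYOD1, the factor of myogenic commitment, was counted in 75.0% and MYF5 in 52.7%. Among markers of other cell types, PTPRC of immune cells had 1 UMI over all 19096 cells and SOX10 of glia 0. The endothelial markers PECAM1 and CDH5 had 45 and 28 UMIs, but CLDN5 had 598 and TEK 147. The pericyte markers RGS5 and PDGFRB had 8 and 188 UMIs, but CSPG4 had 6425 and NDUFA4L2 1134. The paper itself uses MCAM, which had 102 UMIs, and NOTCH3, one of the 10 genes, as pericyte markers.

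MYOD1 set the clusters apart into groups that are used below to order the values. Clusters 8, 11, 5 and 4, here called low in MYOD1, had levels of 0.892 ± 0.014, 1.35 ± 0.076, 1.92 ± 0.014 and 2.71 ± 0.0084. Among clusters 12, 1, 6, 3 and 2, here called the MYOD1-high group, its level ran from 3.96 ± 0.19 in cluster 12 and 5.18 ± 0.16 in cluster 1 to 6.72 ± 0.43 in cluster 2, with clusters 6 and 3 at 5.75 ± 0.44 and 6.35 ± 0.24. Clusters 10 and 13 had as much MYOD1, 5.60 ± 0.22 and 6.75 ± 0.35, but fewer UMIs per cell, and were kept out of the group. MYOG, the factor of terminal differentiation, was highest in cluster 12, at 18.6 ± 0.78, and in cluster 3, at 6.68 ± 0.11. Cluster 9 had a MYOD1 level of 0.571 ± 0.15 and the highest mean level of PDGFRA, a receptor that marks fibro-adipogenic progenitors, at 1.58 ± 0.074. Cluster 7 overlapped it, with PDGFRA at 1.23 in replicate 1 and 1.74 in replicate 2. The paper considers both clusters to be fibro-adipogenic, and for cluster 9 also cites enriched PPARG and ZNF423, regulators of early adipogenesis, and ontology terms of lipogenesis. The 10 fibro-adipogenic markers together did not follow PDGFRA, with a summed level of 58.4 in cluster 9 against 177.6 in cluster 8, 111.5 in cluster 4 and 343.3 in cluster 7. Such a sum mostly shows the abundant genes of a list. PDGFRA made up 1.58 of the 58.4, and CFD and PI16 had 5 and 2 UMIs over all cells. Cycling separated the clusters a further way: MKI67, a marker of dividing cells, stood at 7.95 in cluster 2 and 7.53 in cluster 4, at 2.76 in cluster 6 and 2.40 in cluster 11, and at 0.461 in cluster 1 and 0.252 in cluster 8.

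The 10 genes were found at very different frequencies. HES1 had 41740 UMIs in 67.0% of the cells, and up to 28 in 1 cell. NOTCH3 had 10356 UMIs, HEYL 8845, DLL1 8180 and HEY1 6352, each in 23.3% to 32.1% of the cells. JAG1 had 3224 UMIs, NOTCH2 2285, NOTCH1 2213, NUMB 1481 and JAG2 1416, each in 6.39% to 12.3%. Both libraries gave nearly equal levels over all cells, from 0.0523 ± 0.00049 for NUMB and slightly less for JAG2 to 1.47 ± 0.11 for HES1.

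**Figure D1:**
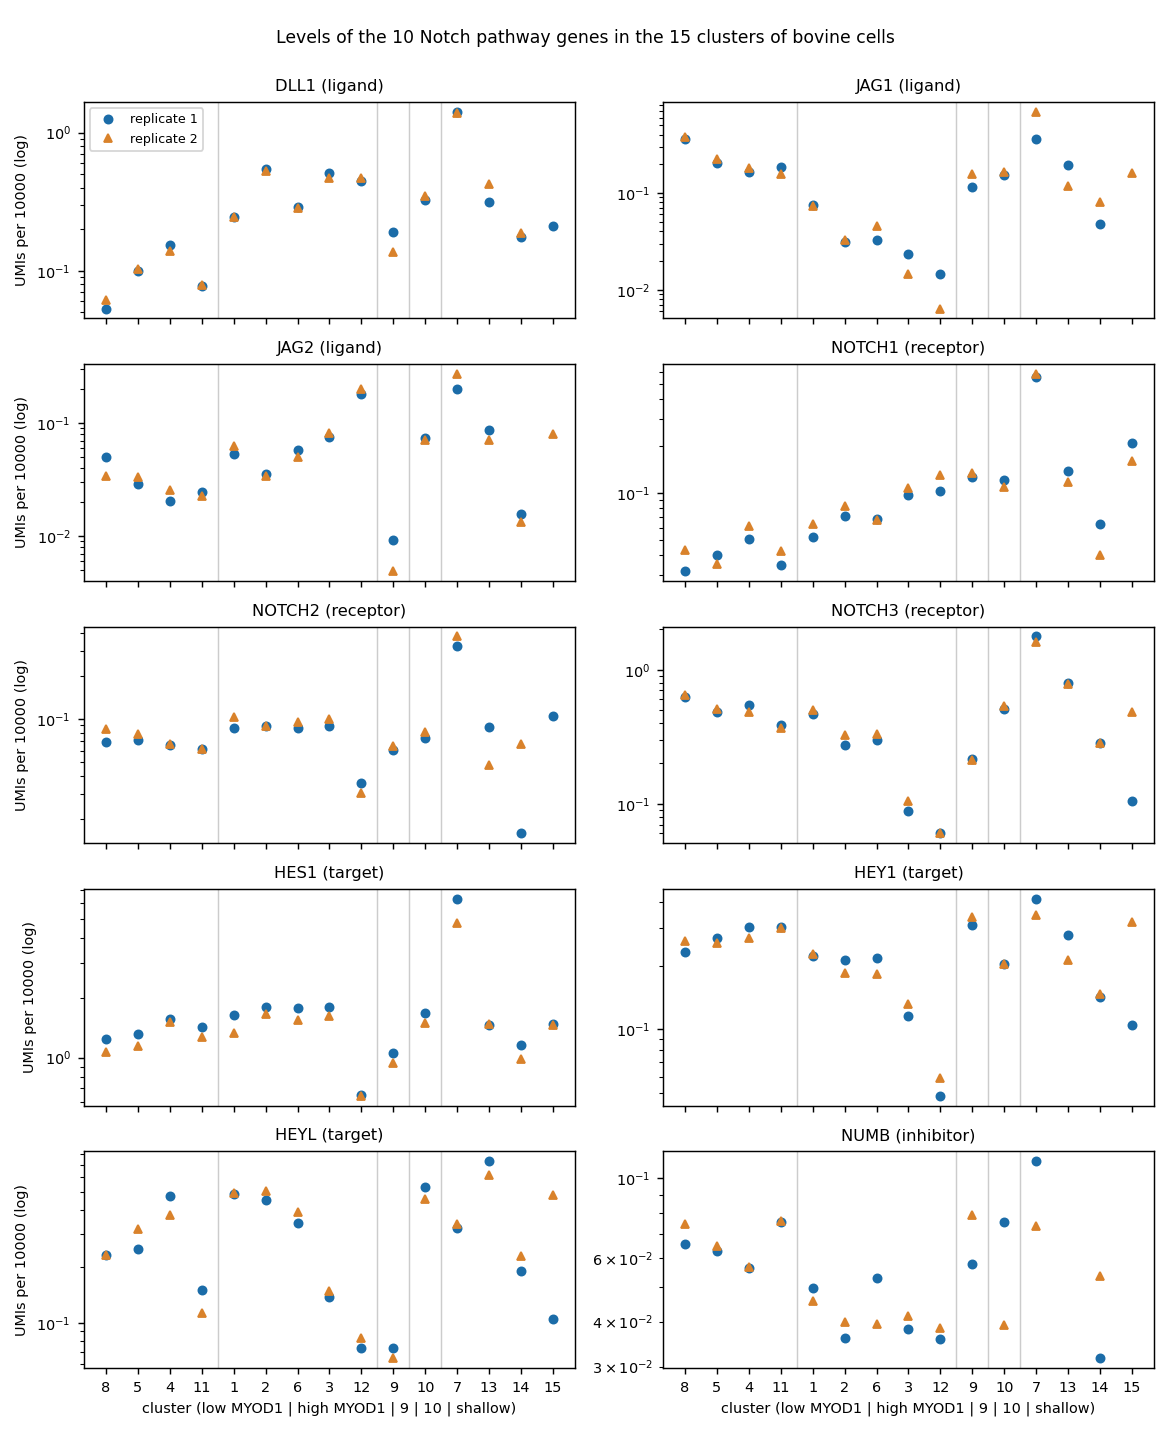
Level of each of the 10 genes (UMIs per 10000 UMIs, log axis, own scale in each panel) in the 15 clusters, with circles for replicate 1 and triangles for replicate 2; vertical lines part clusters low in MYOD1 (8, 5, 4, 11), high in MYOD1 (1, 2, 6, 3, 12), 9, 10 and the shallow ones, and levels of 0 are not drawn. DLL1 was at 0.0532 and 0.0613 in cluster 8 and at 0.542 and 0.526 in cluster 2, JAG1 ran the other way, and cluster 7 had the highest mean level of 9 of the 10 genes.

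DLL1 and JAG1, both ligands of Notch receptors, had opposite distributions. DLL1 was lowest in cluster 8, at 0.0532 in replicate 1 and 0.0613 in replicate 2, and was also low in the other clusters low in MYOD1, at 0.0779 and 0.0789 in cluster 11, 0.0989 and 0.103 in cluster 5, and 0.153 and 0.140 in cluster 4. It was higher in every cluster of the MYOD1-high group, at 0.245 and 0.246 in cluster 1, 0.290 and 0.286 in cluster 6, 0.444 and 0.467 in cluster 12, 0.508 and 0.471 in cluster 3, and 0.542 and 0.526 in cluster 2. The libraries of these 2 groups of clusters did not overlap. JAG1 was highest of these in cluster 8, at 0.363 and 0.374, followed by cluster 5 at 0.206 and 0.222, while cluster 4 stood at 0.165 and 0.182 and cluster 11 at 0.187 and 0.155. In the MYOD1-high group JAG1 stood at 0.0745 and 0.0740 in cluster 1, 0.0324 and 0.0452 in cluster 6, 0.0310 and 0.0323 in cluster 2, 0.0232 and 0.0146 in cluster 3, and 0.0146 and 0.00639 in cluster 12. These groups of clusters did not overlap either, but clusters 10 and 13, also high in MYOD1, lay in the range of the MYOD1-low clusters for JAG1, at 0.151 and 0.164 and at 0.192 and 0.119. Their DLL1 lay in the range of the MYOD1-high group, at 0.327 and 0.345 and at 0.314 and 0.427. Other clusters outside the groups did not follow MYOD1 either. Cluster 9, with the lowest MYOD1, had DLL1 at 0.190 and 0.136 and JAG1 at 0.115 and 0.158. Clusters 14 and 7 had MYOD1 near that of cluster 4, at 2.7 ± 0.25 and 2.46 ± 0.32. Their DLL1 was at 0.174 and 0.188 and at 1.42 and 1.40, and their JAG1 at 0.048 and 0.080 and at 0.357 and 0.689. The ratio of DLL1 to JAG1 UMIs therefore ran from 0.147 and 0.164 in cluster 8 to 17.5 and 16.3 in cluster 2 and to 30.3 and 73.0 in cluster 12, where JAG1 had 13 UMIs in all.

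**Figure D2:**
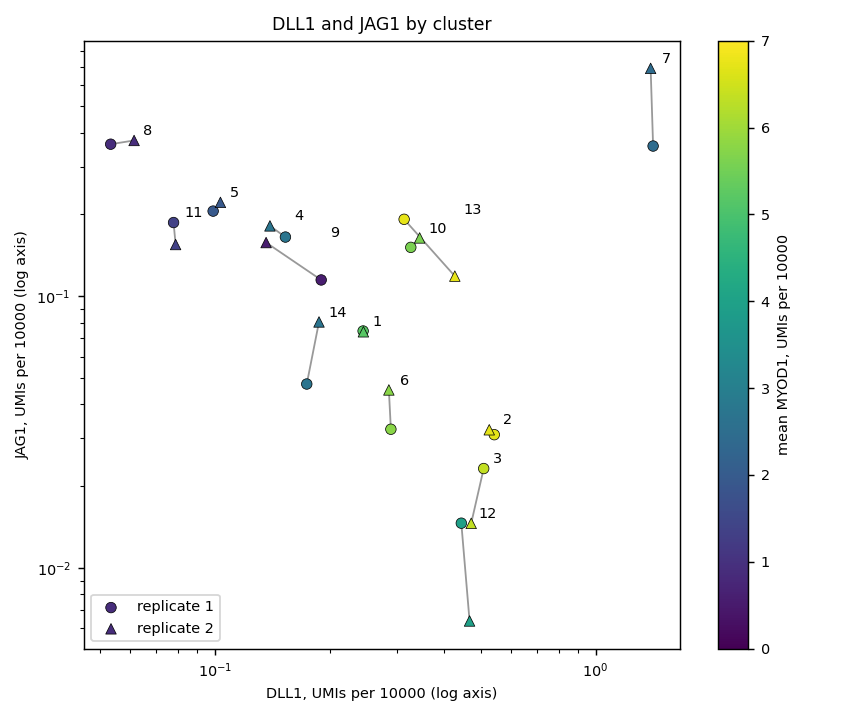
Level of JAG1 against that of DLL1 (UMIs per 10000 UMIs, both axes log) for 14 clusters, numbered, with the 2 libraries of a cluster joined by a line and coloured by the mean MYOD1 level; cluster 15, with 2 UMIs of each gene, is left out. Cluster 8 lies at the upper left and clusters 2, 3 and 12 at the lower right, and cluster 7 lies apart at high levels of both.

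From high to low, DLL1 followed the order of clusters 7, 2, 3, 12, 13, 10, 6, 1, 14, 9, 4, 15, 5, 11 and 8, and 9 of the 14 neighbouring pairs were separated, in that the libraries did not overlap. Clusters 13 and 10 overlapped, as did each neighbour from 14 to 5. JAG1 followed the order 7, 8, 5, 4, 11, 10, 13, 9, 15, 1, 14, 6, 2, 3 and 12, with 5 of 14 neighbouring pairs separated. Its overlapping neighbours were 7 and 8, all those from 4 to 14, and 3 and 12. Over the 11 clusters other than 7, 13, 14 and 15, the Pearson correlation of DLL1 and JAG1 on the log2 scale was -0.87, and over all 15 it was -0.25; the clusters share libraries and were drawn on the same counts, so these values describe the pattern only.

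JAG2, the least often counted of the ligands, had a pattern of its own. Its level was 0.179 and 0.198 in cluster 12, against 0.0745 and 0.0810 in cluster 3 and 0.0536 and 0.0626 in cluster 1. In the clusters low in MYOD1 it lay between 0.0205, in replicate 1 of cluster 4, and 0.0498, in replicate 1 of cluster 8. It was lowest in cluster 9, at 0.00916 and 0.00493, from 19 UMIs. In the order 7, 12, 13, 3, 10, 1, 6, 8, 15, 2, 5, 11, 4, 14 and 9, 9 of the 14 neighbouring pairs were separated, and those not separated were 13 and 3, 1 and 6, 8 and 15, 15 and 2, and 11 and 4.

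Among the receptors, NOTCH3 and NOTCH1 were both highest in cluster 7 but lowest in different clusters, 12 and 8. NOTCH3 was at 0.622 and 0.651 in cluster 8, 0.485 and 0.507 in cluster 5, 0.543 and 0.484 in cluster 4, and 0.466 and 0.503 in cluster 1. It was at 0.0882 and 0.105 in cluster 3 and at 0.0602 and 0.0607 in cluster 12. NOTCH1 was lowest in cluster 8, at 0.0317 and 0.0429, and stood at 0.0977 and 0.108 in cluster 3, 0.104 and 0.131 in cluster 12 and 0.127 and 0.135 in cluster 9. The ratio of NOTCH3 to NOTCH1 UMIs was 19.6 and 15.2 in cluster 8, 8.89 and 7.89 in cluster 1, 0.903 and 0.972 in cluster 3 and 0.578 and 0.463 in cluster 12. NOTCH2 was more even, between 0.0606 and 0.104 in clusters 1 to 6 and 8 to 11, and was lowest on average in cluster 12, at 0.0358 and 0.0304.

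For NOTCH1 the order was 7, 15, 9, 13, 12, 10, 3, 2, 6, 1, 4, 14, 11, 5 and 8, with 6 of 14 neighbouring pairs separated; those from 9 to 10 and from 1 to 8 overlapped. NOTCH2 followed 7, 1, 3, 6, 2, 8, 10, 5, 13, 4, 9, 11, 15, 14 and 12, with 3 separated pairs, 7 from 1, 2 from 8 and 4 from 9. NOTCH3 followed 7, 13, 8, 10, 4, 5, 1, 11, 6, 2, 15, 14, 9, 3 and 12, with 8 separated pairs, and overlapped among 10, 4, 5 and 1 and among 6, 2, 15 and 14.

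The target genes differed from each other. HES1 varied little among clusters 1 to 6, 8, 10 and 11, with mean levels from 1.15 in cluster 8 to 1.73 in cluster 2, and was lowest in cluster 12, at 0.647 and 0.642. HEY1 was at 0.116 and 0.132 in cluster 3 and 0.0488 and 0.0591 in cluster 12, and between 0.231 and 0.305 in the 4 clusters low in MYOD1. HEYL was at 0.486 and 0.498 in cluster 1, 0.456 and 0.508 in cluster 2 and 0.480 and 0.379 in cluster 4. It was at 0.137 and 0.148 in cluster 3, 0.0732 and 0.0831 in cluster 12 and 0.0733 and 0.0648 in cluster 9. Thus all 3 targets were low in cluster 12, HEYL alone of them was lowest on average in cluster 9, and HEY1 there was at 0.311 and 0.340.

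HES1 followed the order 7, 2, 3, 6, 10, 4, 1, 13, 15, 11, 5, 8, 14, 9 and 12, with 3 of 14 neighbouring pairs separated, 7 from 2, 15 from 11 and 9 from 12. HEY1 followed 7, 9, 11, 4, 5, 13, 8, 1, 15, 10, 6, 2, 14, 3 and 12, with 7 separated pairs; the overlapping neighbours were 11 and 4, those from 5 to 8 and those from 1 to 2. HEYL followed 13, 10, 1, 2, 4, 6, 7, 15, 5, 8, 14, 3, 11, 12 and 9, with 6 separated pairs, and overlapped from 10 to 6, from 7 to 5, between 3 and 11 and between 12 and 9. NUMB, in the order 7, 11, 8, 9, 5, 10, 4, 1, 6, 14, 3, 2, 12, 13 and 15, had 3 separated pairs, 11 from 8, 4 from 1 and 12 from 13. Its level was 0.0754 and 0.0762 in cluster 11 and 0.0657 and 0.0748 in cluster 8, against 0.0360 and 0.0400 in cluster 2. No UMI of NUMB was counted in clusters 13 and 15; with 3 UMIs as the limit of a count of 0, its level in cluster 13 was at least 1.74-fold lower than in all other cells, and cluster 15 was too shallow for a bound.

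To test these differences, UMIs were summed per library and cluster, and 2 sums were compared with 2 sums by the quasi-likelihood test of edgeR, where p-values were adjusted over all genes tested by the Benjamini-Hochberg method, with 0.05 as the threshold of a call. The authors drew the clusters on the same counts, the 10 genes included, so a call is not independent evidence of a difference between kinds of cell. For the same reason many genes pass, and the share of all tested genes that were called is given beside the counts of the main fit. An alternative fit took the library as a block. A gene said to pass with the block was not called in the main fit. Its difference and SE are those of the main fit, and only its p-value is of the blocked fit. That p-value rests on the spread that remains between 2 libraries of the same cells once their common difference is taken out. With 2 sums against 2 and a further term for the library, little is left to estimate that spread from.

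The first question was how the genes differed between cells low and high in MYOD1 at a like stage of the cell cycle. Cluster 1 was compared with 8 (little MKI67 in both), 2 with 4 (high MKI67) and 6 with 11 (intermediate MKI67). The 3 pairs have no cells in common. MYOG differed along with MYOD1 in each pair, at mean levels of 0.877 against 0.1075, 1.085 against 0.135 and 0.720 against 0.109. The pairs therefore cannot tell MYOD1 from MYOG. In cluster 1 against 8, 4 of the 10 genes were higher and 2 lower, where 34.1% of all genes were called. In cluster 2 against 4, 2 were higher and 4 lower (30.2% of all genes), and in cluster 6 against 11, 6 were higher and 2 lower (16.5%). DLL1 was higher in the MYOD1-high cluster of all 3 pairs, by log2 2.13 ± 0.12 (SE), 1.85 ± 0.070 and 1.94 ± 0.10, with edgeR adjusted p of 6.66e-06, 1.845e-05 and 3.67e-05. JAG1 was lower in all 3, with log2 differences of -2.27 ± 0.093, -2.47 ± 0.11 and -2.08 ± 0.19 and adjusted p of 1.79e-06, 3.06e-05 and 0.000464. These differences amount to 3.61-fold to 4.39-fold for DLL1 and 4.22-fold to 5.53-fold for JAG1.

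In the main fit, no other gene of the 10 passed in the same direction in all 3 pairs. With the library as a block, which ended no call, NOTCH1 and HES1 were called higher in all 3 pairs, and NOTCH3 and NUMB lower. NOTCH1 was higher in 1 against 8 (log2 0.68 ± 0.22) and in 6 against 11 (0.87 ± 0.19), and stood at 0.44 ± 0.15 in 2 against 4, where it passed with the library as a block in the model (adjusted p = 0.00945), without cells of high doublet score (0.0355) and after reassignment by profile (0.0335). NOTCH3 was lower in 1 against 8 (-0.36 ± 0.066) and 2 against 4 (-0.79 ± 0.097), and in 6 against 11 it stood at -0.20 ± 0.084, which passed with the block (adjusted p = 0.03). NOTCH2 was higher in 2 against 4 (0.42 ± 0.11) and 6 against 11 (0.62 ± 0.15), and JAG2 in 6 against 11 (1.25 ± 0.22), while in 2 against 4 JAG2 passed with the block only (0.58 ± 0.20, adjusted p = 0.0301). The targets parted here. HEYL was higher in 1 against 8 (1.12 ± 0.071) and 6 against 11 (1.52 ± 0.14) but stood at 0.15 ± 0.12 in 2 against 4. HES1 was higher by 0.40 ± 0.11 and 0.36 ± 0.081 in 1 against 8 and 6 against 11. In 2 against 4 HES1 stood at 0.15 ± 0.054, which passed with the block (adjusted p = 0.000582). HEY1 was lower in 2 against 4 (-0.54 ± 0.098) and 6 against 11 (-0.55 ± 0.11) and stood at -0.09 ± 0.091 in 1 against 8. NUMB was lower in 2 against 4 (-0.59 ± 0.15), and stood at -0.52 ± 0.17 and -0.65 ± 0.20 in the other 2 pairs, where it passed with the block (adjusted p = 0.0182 and 0.00464).

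The call of NOTCH1 in 1 against 8 was lost without TMM scaling and without a filter on low counts, and that in 6 against 11 without cells of high doublet score. Calls of NOTCH1 in 1 against 8 and 6 against 11, of NOTCH2 in 2 against 4 and 6 against 11, and of NUMB in 2 against 4 were lost with DESeq2, and those of NOTCH1 in both pairs, of NOTCH2 in 2 against 4 and of HEY1 in 6 against 11 were lost when cells were reassigned to clusters without any Notch pathway gene. Those of DLL1 and JAG1 in all 3 pairs were not lost under any alternative.

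**Figure D3:**
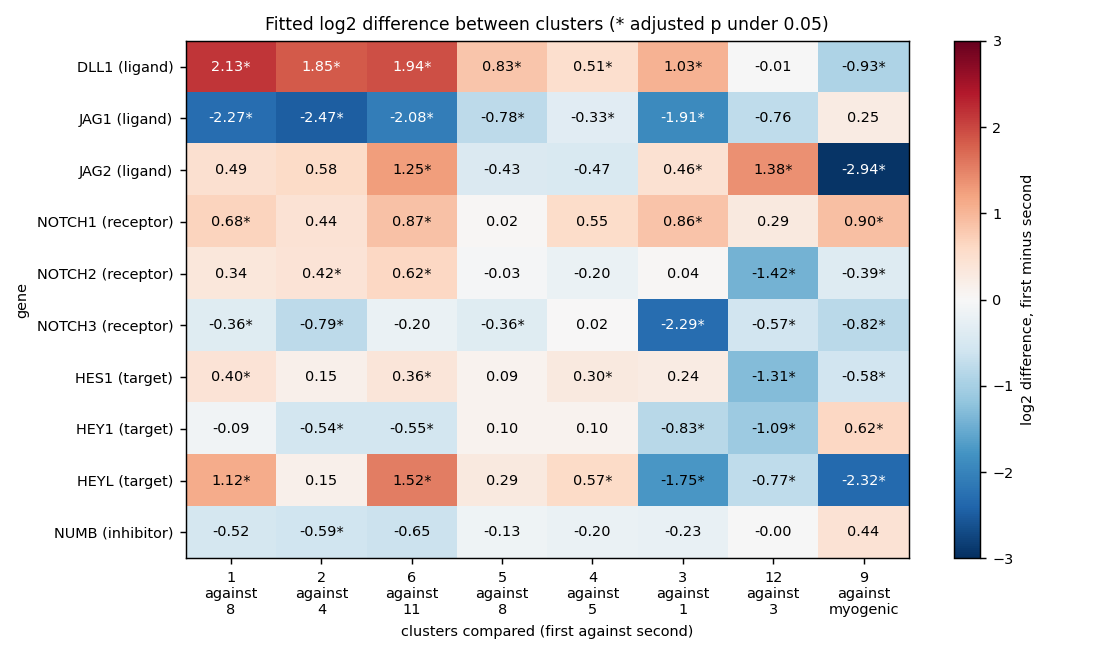
Fitted log2 difference of each gene in the 8 comparisons (first cluster minus second, colour and printed value), with an asterisk for an adjusted p under 0.05 by edgeR's quasi-likelihood test. The row of DLL1 is red and that of JAG1 blue in the first 3 columns, cluster 3 against 1 lowers NOTCH3 and HEYL, and cluster 12 against 3 lowers HES1, HEY1 and NOTCH2.

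Among the clusters low in MYOD1, the differences were smaller. In cluster 5 against 8, 1 gene was higher and 2 lower (28.5% of all genes called): DLL1 rose by log2 0.83 ± 0.15, and JAG1 and NOTCH3 stood lower, at -0.78 ± 0.082 and -0.36 ± 0.064. HEYL, at 0.29 ± 0.12, passed with the block (adjusted p = 0.00593). In cluster 4, which held far more MKI67 than cluster 5, 3 genes were higher and 1 lower (16.4% of all genes). DLL1 was higher by 0.51 ± 0.11, HES1 by 0.30 ± 0.072 and HEYL by 0.57 ± 0.15, and JAG1 was at -0.33 ± 0.088; NOTCH1, at 0.55 ± 0.18, passed with the block (adjusted p = 0.0249). The HEYL difference was 0.92 in replicate 1 and 0.22 in replicate 2. DESeq2 lost the calls of DLL1 in both comparisons and of JAG1 in the latter, and without a filter on low counts those of HES1, HEYL and JAG1 in the latter were lost. JAG1 in the latter was also lost without TMM (adjusted p = 0.0622).

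Differentiation was followed from cluster 1 to 3 and from 3 to 12, as MYOG rose from 0.877 to 6.68 and 18.6. In cluster 3 against 1, 3 genes were higher and 4 lower (40.2% of all genes called). NOTCH3 dropped 4.91-fold, with a log2 difference of -2.29 ± 0.090 (edgeR adjusted p = 1.1e-05), and HEYL 3.37-fold, with -1.75 ± 0.067. JAG1 was lower by a further 3.77-fold (-1.91 ± 0.22), and HEY1 stood at -0.83 ± 0.085. DLL1 was higher by log2 1.03 ± 0.071, NOTCH1 by 0.86 ± 0.14 and JAG2 by 0.46 ± 0.14, and HES1, at 0.24 ± 0.10, passed with the block (edgeR adjusted p = 3.76e-13). The level of HES1 went from 1.636 in cluster 1 to 1.795 in cluster 3 in replicate 1, and from 1.336 to 1.628 in replicate 2. Since the blocked fit leaves little to estimate the spread from, this p-value does not rank HES1 above the other genes. NOTCH2 stood at 0.04 ± 0.13 and NUMB at -0.23 ± 0.16. The call of JAG2 was lost with DESeq2, without TMM scaling and without cells of high doublet score.

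In cluster 12 against 3, 1 gene was higher and 5 lower (33.8% of all genes); JAG2, HEY1, HEYL and NOTCH3 were called in the same direction in both steps. JAG2 was 2.60-fold higher (log2 1.38 ± 0.13, edgeR adjusted p = 0.000132). HES1 was 2.48-fold lower (-1.31 ± 0.072, adjusted p = 9.235e-06), NOTCH2 2.67-fold (-1.42 ± 0.20) and HEY1 2.14-fold (-1.09 ± 0.17), and HEYL and NOTCH3 stood at -0.77 ± 0.14 and -0.57 ± 0.18. DLL1 stood at -0.0094 ± 0.077, NUMB at -0.00088 ± 0.23, NOTCH1 at 0.29 ± 0.15 and JAG1, from 13 and 68 UMIs, at -0.76 ± 0.49. The call of NOTCH3 was lost with DESeq2 and without cells of high doublet score. Thus NOTCH3 and HEYL had larger differences in the step to cluster 3 than in the step to cluster 12. HES1 and NOTCH2 were called lower in the step to cluster 12 and not in the one before. Whether the steps differ from each other was not tested, and they share cluster 3.

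Cluster 9, high in PDGFRA, was compared with the sum of 7 clusters that the study calls myogenic (1, 2, 3, 4, 5, 8 and 12). Here 2 genes were higher and 6 lower, where 56.5% of all genes were called. JAG2 was 7.65-fold lower (log2 -2.94 ± 0.24, edgeR adjusted p = 0.000326) and HEYL 5.01-fold lower (-2.32 ± 0.078, adjusted p = 1.9e-05). DLL1 stood at -0.93 ± 0.14, NOTCH3 at -0.82 ± 0.054, HES1 at -0.58 ± 0.088 and NOTCH2 at -0.39 ± 0.10, the last of which DESeq2 did not call. NOTCH1, by 0.90 ± 0.10, and HEY1, by 0.62 ± 0.059, were higher. JAG1 and NUMB, at 0.25 ± 0.14 and 0.44 ± 0.16, passed with the block only (adjusted p = 0.0412 and 0.00702). The libraries differed for both genes. In cluster 9 against all other cells, JAG1 was at 0.035 in replicate 1 and 0.43 in replicate 2, and NUMB at 0.12 and 0.64. Neither was called there in the main fit. Cluster 9 held 14.4% cells of high doublet score, and MYF5 was counted in 17.3% of its cells; without the high scores, the log2 differences were -3.72 for HEYL and -4.05 for JAG2. The JAG2 difference was -2.52 in replicate 1 and -3.52 in replicate 2.

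Against all other cells, the 10 genes gave 42 calls of a higher and 41 of a lower level over 150 tests, and with the other clusters weighted equally 28 and 49. Among the clusters low in MYOD1, 3 genes were higher and 4 lower in cluster 8 (46.0% of all genes called), 3 and 3 in cluster 5 (24.1%), 4 and 4 in cluster 4 (31.6%) and 3 and 5 in cluster 11 (26.5%). In the MYOD1-high group, 2 were higher and 2 lower in cluster 1 (33.4%), 3 and 4 in cluster 2 (31.8%), 5 and 4 in cluster 3 (49.9%), 1 and 1 in cluster 6 (20.1%), and 3 and 6 in cluster 12 (54.3%). Cluster 9 gave 2 higher and 6 lower (53.0%) and cluster 10 gave 4 higher and 0 lower (38.6%). In the shallow cluster 13, 2 were higher and 1, NUMB, lower (17.3%). Clusters 14 and 15 gave 0 calls (7.79% and 0.273% of all genes) with edgeR and also with DESeq2, and 3 and 1 of the 10 genes had an unadjusted edgeR p under 0.05.

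In cluster 13, NOTCH3 was at 0.803 and 0.782 and HEYL at 0.733 and 0.617, the highest mean level of HEYL in any cluster. Both were called higher than in all other cells, by log2 1.02 ± 0.12 and 1.03 ± 0.14. These rest on 79 and 68 UMIs, at a median depth of 1631 UMIs per cell. NOTCH3 was also called higher in cluster 10, by log2 0.425 ± 0.070. By its markers, NOTCH3 among them, the paper finds that neither cluster appeared to be pericytes.

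The shallow cluster 7 differed from all others, with 7 genes called higher and 1 lower than in all other cells (44.7% of all genes called). HES1 was at 6.31 and 4.75, NOTCH3 at 1.77 and 1.61, DLL1 at 1.42 and 1.40 and NOTCH1 at 0.558 and 0.582. Against all other cells, NOTCH1 was higher by log2 2.29 ± 0.13, DLL1 by 1.68 ± 0.091, JAG2 by 1.66 ± 0.21, JAG1 by 1.65 ± 0.27, NOTCH3 by 1.60 ± 0.084, NOTCH2 by 1.52 ± 0.16 and HES1 by 1.28 ± 0.14. JAG1 was at 0.357 in replicate 1 and 0.689 in replicate 2, and its difference was 1.04 in replicate 1 alone. All 7 were also called among cells of 2000 UMIs or more, with NOTCH3 at 1.03 and HES1 at 0.85, whereas HEYL lost its call there (-0.51, adjusted p = 0.188). TMM scaling moved the median of all genes by -0.65 in this cluster, so the same differences without it are larger, and HEYL, called lower at -0.56 ± 0.12, turns to 0.08. HEY1 and NUMB stood at 0.10 ± 0.13 and 0.15 ± 0.25, and without TMM HEY1 was called higher, at 0.75 (adjusted p = 0.00682). Cluster 7 also had the highest summed level of the 9 pericyte markers, 2.37 against 0.0653 to 0.940 in the other clusters, and of the 10 fibro-adipogenic markers, 343.3 against 33.4 to 177.6. Its sums of the 10 immediate early genes, 20.3 against 8.79 to 14.1, and of the 5 immune markers, 0.154 against 0 to 0.0467, were also the highest. The part of any of these in the levels was not tested. None of these sums was TMM-scaled. Most pericyte UMIs over all cells were of CSPG4, with 6425, and NDUFA4L2, with 1134, against 8 to 188 for each of the others.

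The other genes of the pathway were described by a list of 67, of which 65 had UMIs and 48 to 58 could be tested in a comparison. In the pairs matched for MKI67, 10 were higher and 10 lower of 53 in cluster 1 against 8, which is 37.7% of the list against 34.1% of all genes. In 2 against 4, 7 and 7 of 56 were called (25.0% against 30.2%), and in 6 against 11, 6 and 8 of 50 (28.0% against 16.5%); the median log2 differences, -0.01, -0.04 and -0.02, lay near those of all genes at -0.00, -0.01 and 0.01. RBPJ, the DNA-binding partner of the receptor, was higher in the MYOD1-high cluster of all 3 pairs, by log2 1.07 ± 0.060, 0.52 ± 0.051 and 0.68 ± 0.065. NEURL2, of the Neuralized family, was higher there too, by 0.93 ± 0.15, 0.90 ± 0.11 and 0.99 ± 0.16. MYOG was also higher in those clusters, and a part of NEURL2 in Notch signalling was not tested. BMP2K, a kinase related to the NUMB kinase AAK1, was lower in all 3, at -1.11 ± 0.067, -0.39 ± 0.062 and -0.30 ± 0.083. DLK1, a Delta-like protein below the level at which genes of the list were named, and named after its values were seen, was higher in all 3, by 3.22 ± 0.44, 1.68 ± 0.50 and 2.09 ± 0.56. MFAP2, a microfibril protein, was higher by 1.09 ± 0.18 in 6 against 11. KAT2A, an acetyltransferase, was higher by 0.39 ± 0.088 in 2 against 4, which DESeq2 did not call.

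In cluster 5 against 8, 2 genes of the list were higher and 11 lower of 48 (27.1% of the list against 28.5% of all genes), at a median of -0.11 against -0.01 for all genes, led by BMP2K (-0.87 ± 0.067), the Deltex ligase DTX3 (-0.45 ± 0.10) and the γ-secretase subunit PSEN2 (-0.43 ± 0.095). In cluster 4 against 5, 1 was higher and 4 lower of 53 (9.43% against 16.4%), with PSEN2 at -0.73 ± 0.11, the NUMB homologue NUMBL at -0.40 ± 0.10 and the coactivator CREBBP at 0.23 ± 0.056. DESeq2 did not call DTX3 and PSEN2 in the former, nor NUMBL and CREBBP in the latter.

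In differentiation, 10 genes of the list were higher and 9 lower of 53 in cluster 3 against 1 (35.8% against 40.2%), and 14 were higher and 1 lower of 51 in cluster 12 against 3 (29.4% against 33.8%), where the median was 0.10 against -0.02 for all genes. NEURL2 was higher in both steps, by 0.96 ± 0.10 and 1.36 ± 0.11, and MYOG rose in both as well. The Deltex ligase DTX4 and MFAP2 stood at -1.16 ± 0.15 and -0.91 ± 0.10 in the former. LNX1, a ligase known to bind NUMB, and the acetyltransferase KAT2B were higher by 1.60 ± 0.14 and 1.56 ± 0.16 in the latter, in which 5 of the 10 Notch genes above were lower. In cluster 9 against the myogenic clusters, 17 of the list were higher and 25 lower of 58 (72.4% against 56.5% of all genes), at a median of -0.22 against -0.01. MFAP5, a microfibril protein, was higher by 4.93 ± 0.16 and FURIN, the protease that cleaves Notch receptors on their way to the surface, by 1.39 ± 0.049, and MIB2, a ubiquitin ligase of the ligands, stood at -1.25 ± 0.091.

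Shares of cells were compared after each cell was thinned at random to 5000 UMIs, which left 15996 of the 19096 cells. JAG1 was counted in 14.7% of the 1233 cells of cluster 8 (95% exact binomial interval 12.8 to 16.8, here and below of counting error only), 3.17% of the 2461 of cluster 1 and 0.816% of the 613 of cluster 12 (0.265 to 1.89). DLL1 was counted in 2.76% of cells in cluster 8 (1.92 to 3.83), 11.5% in cluster 1 and 22.4% in cluster 2 (20.7 to 24.3). NOTCH3 was counted in 25.7% of cells in cluster 8 and 2.94% in cluster 12, and HES1 in 49.4% in cluster 3 and 22.5% in cluster 12. Without thinning, the shares of JAG1 were 31.0% and 1.59% in clusters 8 and 12, at median depths of 13158 and 19113 UMIs, and those of DLL1 were 7.41% and 56.2% in clusters 8 and 2. No cluster is known to lack these genes, so their share from free RNA was not measured; the lowest share of each gene stands beside its highest for that reason.

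Few cells had counts of both ligands. Each was counted in a minority of cells at this depth, so a small share with both does not by itself show exclusion. At 5000 UMIs, cluster 8 had 14.1% of cells with JAG1 alone, 2.19% with DLL1 alone and 0.568% with both, and cluster 2 had 1.52%, 22.2% and 0.190%. In cluster 5, JAG1 was counted in 2.47% of the cells with DLL1 (2 of 81) and in 9.82% of those without, and of the 9 clusters with enough cells, in 5 the share was lower with DLL1 in both libraries and in 0 higher in both. Cluster 8 had too few cells with DLL1 for this count, and there JAG1 was in 20.6% of the 34 cells with DLL1 and 14.5% of those without. Cells of a cluster are no replicates, and these shares are given with no test.

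A split by MYOD1 was also seen among the cells of most clusters. In cluster 1, DLL1 was counted in 12.7% and 12.3% of the cells with MYOD1 and in 8.0% and 6.07% of those without, in replicates 1 and 2. JAG1 was counted there in 2.09% and 2.35% of the cells with MYOD1 and in 6.67% and 7.69% of those without. Over 11 clusters, DLL1 was more frequent in cells with MYOD1 in both libraries of 9 and less frequent in 0, and JAG1 was less frequent in 8 and more frequent in 1, cluster 3. MYOD1 itself was counted in 14.7% of the cells of cluster 9, its lowest share among the 12 clusters with cells of that depth, and whether free RNA contributes to these shares was not tested.

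HEYL was more frequent in cells with NOTCH3 than in cells without it in most clusters, though few cells had both, 6.34% in cluster 1. In cluster 1, HEYL was counted in 31.0% and 32.0% of the cells with NOTCH3 and in 18.5% and 17.6% of those without. In cluster 2 the shares were 29.9% and 35.0% with NOTCH3 and 16.8% and 16.5% without, and in cluster 4 they were 27.1% and 29.4% with and 16.7% and 14.5% without. Of 10 clusters, the share was higher with NOTCH3 in both libraries of 8, and clusters 9 and 10 went both ways. This was not particular to HEYL. The ligand JAG1 was also more frequent in cells with NOTCH3 in both libraries of 7 of 10 clusters and less frequent in 0. For HES1 and NOTCH3 no such pattern was seen, with NOTCH3 more frequent in cells with HES1 in both libraries of 2 of 11 clusters and less frequent in 5.

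**Figure D4:**
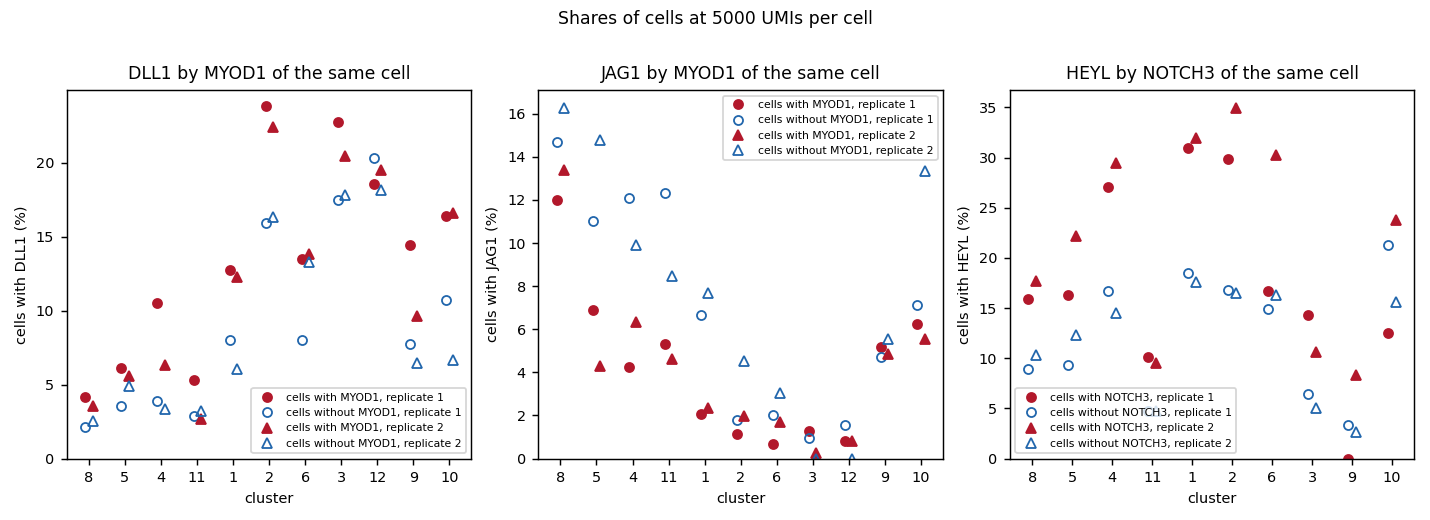
Share of cells (%) with DLL1 (left) and JAG1 (middle) among cells with MYOD1 (filled) and without it (open), and with HEYL (right) among cells with and without NOTCH3, at 5000 UMIs per cell, for each cluster and for replicates 1 (circles) and 2 (triangles). Filled marks lie above open ones for DLL1 in both libraries of 9 of 11 clusters and for HEYL in 8 of 10, and below them for JAG1 in 8 of 11.

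The spread of counts over the cells of a cluster also differed between the genes. The ratio of variance to mean of UMIs in thinned cells is 1 where molecules fall at random. For HES1 it was 1.67 and 1.57 in cluster 1 and 1.71 and 1.65 in cluster 12. For DLL1 in cluster 2 it was 1.11 and 1.07, and for HEY1 in cluster 1 it was 1.07 and 1.11. HEYL in cluster 2 was at 1.43 and 1.48, and NOTCH3 in cluster 4 at 1.30 in both libraries. The ratio also grows with the level of a gene, and HES1 had the highest level of these 5 genes.

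The genes most like the members over the 15 clusters were found by the Pearson correlation of log2 levels, as a description, since the clusters share libraries and the shallow ones weigh heavily. HEYL was most like FGFR4, a receptor of fibroblast growth factors (r = 0.93), and FGFR4 was also first without clusters 7, 13, 14 and 15 (r = 0.95 over 11 clusters). NOTCH2 was most like ATRX, TTC14 and its fellow member HES1 (r = 0.95, 0.95 and 0.94), and HES1 was first over the 11 clusters (r = 0.88). JAG1 was most like HTRA1, FKBP10 and CRISPLD2 (r = 0.94 to 0.95), NOTCH3 like ENC1, CDK14 and LTBP3 (r = 0.95), JAG2 like TNS1, SAMD4A and FAM171A2 (r = 0.95 to 0.96) and DLL1 like ARFGAP2, TGFBR2 and USP12 (r = 0.92 to 0.94). NOTCH1 was most like TMEM33, UPF2 and PMPCA (r = 0.91 to 0.93), HEY1 like DDX31, SERPINE2 and GNL1 (r = 0.93 to 0.95) and NUMB like TMED10, UBR1 and TBL3 (r = 0.79 to 0.81). Over the 11 clusters none of the 3 genes stayed for JAG1 (then NDRG1, WIPI1 and FYN, r = 0.98), JAG2, NOTCH1, HEY1 and NUMB. Over the 11 clusters, DLL1, JAG2 and NOTCH1 went with MYOG (r = 0.87, 0.81 and 0.72). Against it went JAG1, HEY1, NUMB and NOTCH3 (r = -0.88, -0.91, -0.84 and -0.81), while NOTCH2, HES1 and HEYL lay at -0.24, -0.22 and -0.21. With MYOD1, r was 0.80, 0.65 and 0.27 for DLL1, JAG2 and NOTCH1. It was -0.67, -0.51, -0.82 and -0.23 for JAG1, HEY1, NUMB and NOTCH3. For NOTCH2, HES1 and HEYL it was 0.31, 0.46 and 0.53. NUMB also went with JAG1 (r = 0.92) and against DLL1 (r = -0.91).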

How the data were processed

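Per the labels and the methods, the authors aligned reads to ARS-UCD1.2 and made UMI counts per gene and cell with Cell Ranger 3.0.2; the deposited counts hold both libraries, which were combined by its aggregation step. A cell's library was read from its barcode suffix, 1 or 2, taken in the order in which libraries are combined; no comparison rests on which library is which. Other columns deposited by the authors hold average UMI counts per cluster on a scale of their own, which were used only to deduce the cluster of every cell (0 of 252240 gene and cluster averages differed), and log2 fold changes and p-values, which were not used. The score of each cell for doublets came from Scrublet in scanpy 1.11.5, whose automatic threshold marked 0 and 1 cells. Doublets were kept. As an alternative chosen after seeing the data, cells above a score cut set by the expected rate of 8% were left out, which were 7.32% of the cells.

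UMI sums per library and cluster were tested with edgeR 4.0.16 (R 4.3.3; glmQLFTest, TMM, filterByExpr); DESeq2 1.42.0 was an alternative. Tested on simulated data with 200 genes changed 3-fold, 94% were recovered in cluster 12 against 3 (10811 genes) and 91.5% in cluster 8 against all other cells. The simulated sums were drawn independently, unlike the real sums of a library, so the simulation does not cover that correlation. Deviations of sums from the same library correlated at r = 0.17 to 0.67 in the 23 comparisons. The main fit did not use this pairing of sums by library, and a replicate block in the model was an alternative. The 10 genes, the list of 67 and the tests were chosen with earlier results of these data known. All 10 genes are named in every pair, with at most 3 called genes of the list per pair, of largest difference at a level of 0.1 or more. Likeness used genes at 0.5 or more in a cluster and a pseudocount of 0.01. The genes most like HES1 are not reported here. Lists of glial, smooth muscle, immediate early and cycling genes gave summed levels per cluster of 0.120 to 0.541, 4.23 to 10.3, 8.79 to 20.3 and 1.94 to 25.9. The myogenic list ran from 1.86 to 45.6, differentiated muscle from 1.07 to 163.6, endothelial from 0 to 0.224 and immune from 0 to 0.154. No sequence or coordinate is printed, as a genome of the build was not used here.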

Additional observations from a re-analysis of the deposited data

How the results depend on the processing

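Outside the counts, 116 differences were refitted under up to 9 alternatives, and 766 of 825 values kept direction and side of the threshold. DESeq2 called 38 genes of the pathway list lower over the 8 pairs, against 75. The other counts of calls stayed within 1.5 times; with the replicate block, which pairs sums of a library, the 10 genes had 30 higher and 29 lower calls over the 8 pairs, against 22 and 26, and 52 and 48 against all other cells, and it ended no call; the 11 calls it added in the 8 pairs stand beside their results, the 17 net ones against all other cells are not named, and it changed no other call. Reassigning cells by profile without any pathway gene, which left 85.9% in their cluster, gave 20 and 25 over the pairs. Leaving out cluster 7 from the other cells, chosen after seeing the data, gave 38 higher and 37 lower, against 35 and 40 over the same 14 clusters. The share of all tested genes called under these alternatives, equal weights included, is not reported here. Without it, their counts cannot be read as a result about the 10 genes or the list.

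Of the signs that turned, 11 belong to differences that were not called. Without TMM, NOTCH2 in 3 against 1 went to -0.0015 and HEYL in cluster 7, the one called difference among them, to 0.084. With DESeq2, DLL1 and NUMB in 12 against 3 went to 0.0066 and 0.014. After reassignment by profile, NOTCH2 in 3 against 1 went to -0.12, DLL1 and NUMB in 12 against 3 to 0.047 and 0.0074, NOTCH2 and NOTCH1 in 5 against 8 to 0.012 and -0.20, and HEYL in 2 against 4 to -0.085. Without the 7.32% of cells with the highest doublet scores, NOTCH1 in 5 against 8 went to -0.11. Without cells under 2000 UMIs, HEY1 in cluster 7 went to -0.36. The causes were not tested.

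Leaving out either library left 1 sum against 1, which gives values and no test; called differences kept their sign in each library. Depth limits clusters 14 and 15, where 3 UMIs of a cluster are a level of up to 0.137. The clusters come from the same counts, and 2 libraries of the same cells from 1 calf say nothing of other animals.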
